A study of Mus musculus with 18 samples.

Results

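The 10 genes described here encode proteins of the cellular antioxidant defense. They were chosen by their symbols as members of the Nrf2 pathway and of the enzymes that remove superoxide and peroxide. Earlier results of these data were known when the choice was made. The 10 are Nfe2l2, Keap1, Nqo1, Hmox1, Gclc, Gpx1, Sod1, Sod2, Cat and Txnip, 10 of 24421 gene symbols in the count table. All 10 passed the filter on low values, a mean of at least 1 CPM (counts scaled to sequencing depth, after TMM normalization) over all libraries, as did 12808 genes in all.

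Hematopoietic stem cells (HSCs) keep low levels of reactive oxygen species, and their loss of quiescence is linked to oxidative stress. Superoxide is converted to hydrogen peroxide by superoxide dismutases, and peroxide is removed by catalase, by glutathione peroxidases and by the peroxiredoxins that thioredoxin recycles. The transcription factor Nrf2 (Nfe2l2) is held at low protein levels by Keap1 and, when released, raises many of these enzymes, so that its activity is set mostly at the protein level rather than by its own RNA.

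RNA was sequenced from LT-HSCs, ST-HSCs and bulk-HSCs of young (2 to 3 months) and aged (23 to 25 months) mice, with 3 libraries in each of the 6 groups. All groups came from Hoxb5-tri-mCherry mice on the C57BL/6J background, which carry a fluorescent reporter of Hoxb5 expression and received no other treatment. Bulk-HSCs are immunophenotypically defined HSCs, LT-HSCs are the Hoxb5 reporter-positive part of them and ST-HSCs the reporter-negative part, so that the bulk fraction holds cells of both kinds. Whether a library came from 1 animal or a pool, and whether fractions share animals, is not given in the sources used here, so that p-values measure the spread between these libraries and those of the average over fractions may be too small. In sorted populations, fewer cells of a type and less RNA per cell cannot be told apart.

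The libraries held 16495048 to 22973844 counts, and 3 counts correspond to 0.132 to 0.176 CPM. The 10 listed HSC markers were all detected in every group, with sums of 3299 to 4508 CPM. Of 9653 genes whose median count was 200 or more, 1 to 163 were at 0 in the young libraries and 2 to 6 in the aged ones. The 2 libraries with the most such zeros, 163 and 160, were replicate 3 of young LT-HSCs and replicate 3 of young ST-HSCs. Some of the changes and calls that use these libraries are also given without both.

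Cat and Txnip were the 2 genes of the set that passed the test in an age comparison, Cat lower and Txnip higher, and the bases upstream of their start sites are shown for that reason. Cat encodes catalase, which splits hydrogen peroxide, and lies on the minus strand of chromosome 2 (103453849 to 103485160, mm10). Txnip encodes the thioredoxin-interacting protein, an inhibitor of thioredoxin that also limits glucose uptake, and lies on the plus strand of chromosome 3 (96557957 to 96561883). The 250 bases before the RefSeq start site (GRCm38.p6), chr2:103485154-103485403 on the minus strand for Cat and chr3:96557707-96557956 on the plus strand for Txnip, are printed 5′ to 3′, with the letters CCAAT on either strand and, in Txnip, GTAAACA in capitals.
Cat: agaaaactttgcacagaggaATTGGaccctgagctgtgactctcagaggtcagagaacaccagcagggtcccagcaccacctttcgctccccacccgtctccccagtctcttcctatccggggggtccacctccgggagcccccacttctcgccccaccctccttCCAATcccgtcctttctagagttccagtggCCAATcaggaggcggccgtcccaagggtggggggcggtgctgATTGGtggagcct
Txnip: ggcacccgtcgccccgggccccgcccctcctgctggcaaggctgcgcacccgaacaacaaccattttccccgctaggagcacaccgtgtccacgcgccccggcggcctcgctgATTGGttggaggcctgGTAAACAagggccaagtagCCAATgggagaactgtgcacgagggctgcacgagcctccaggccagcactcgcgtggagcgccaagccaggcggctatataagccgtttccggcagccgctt
Cat held 4 CCAAT matches on both strands together and Txnip held 2, besides 1 GTAAACA, the letters bound by FoxO factors. These matches do not overlap each other. Among 32851 promoter windows of the same 300 bases (250 before to 50 after the start), CCAAT was found in 37.4% and GTAAACA in 3.65%. Promoter windows were given for 8 of the 10 genes, all but Hmox1 and Gclc. CCAAT stood in 4 of the 8 (Cat, Txnip, Sod1 and Sod2). The antioxidant response element TGACNNNGC, searched on both strands, stood in 2 of the 8 (Nfe2l2 and Sod1) and in 12.4% of all windows. The letters CACGTG (7.15% of windows) and TGACTCA (5.2%) stood in 0 of the 8.

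Levels between genes were compared as CPM per kilobase of annotated exon (GENCODE M21), averaged over the 18 libraries. Txnip was the highest at 741, followed by Gpx1 at 161, Cat at 42.7, Sod1 at 36.9, Nfe2l2 at 30.2, Keap1 at 19.8, Gclc at 13.9, Sod2 at 8.72, Hmox1 at 6.54 and Nqo1 at 4.89. The lowest Txnip library (554) lay above the highest Gpx1 library (207), and the lowest Gpx1 library (116) above the highest Cat library (64). From Cat downward, neighbours in this order overlapped over the libraries. Sod2 has 10008 annotated exon bases, more than any other of the 10, and its level per kilobase depends on how much of them is used in these cells.

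Catalase RNA was lower in the aged than in the young libraries of each fraction, and the fall passed the test in LT-HSCs, in ST-HSCs and averaged over the fractions. In LT-HSCs, Cat stood at 150, 122 and 132 CPM in young mice and at 86.7, 87.9 and 78.6 CPM in aged mice. The ST-HSC values were 167, 132 and 135 CPM in young mice and 97.8, 97.0 and 76.9 CPM in aged mice. In bulk-HSCs they were 135, 112 and 125 CPM against 87.8, 90.0 and 96.5 CPM. The aged libraries lay below the young ones within each fraction, and the highest of the 9 aged libraries (97.8 CPM) lay below the lowest of the 9 young libraries (112 CPM). Of all tested genes, 1.17% separated the 9 aged from the 9 young libraries in this way, and Cat was the 1 gene of the 10 that did.

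Averaged over the 3 fractions, Cat fell by 0.60 on the log2 scale (SE 0.081), to 0.662 of the young level, with an adjusted p of 0.000153 in edgeR (quasi-likelihood, Benjamini-Hochberg adjusted). Within fractions, Cat fell by 0.67 in LT-HSCs (SE 0.14, adjusted p = 0.0411) and by 0.68 in ST-HSCs (SE 0.14, adjusted p = 0.0284). The bulk-HSC change of Cat was −0.44 (SE 0.14), and edgeR's adjusted p of 0.133 missed the threshold, while DESeq2 gave 0.0311. The age effects of Cat were not shown to differ between fractions: the difference between LT-HSCs and ST-HSCs was 0.0036 (95% interval −0.41 to 0.42, adjusted p = 1 in edgeR), and those of LT-HSCs and ST-HSCs from bulk-HSCs were −0.23 and −0.24.

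The calls within single fractions were close to the threshold. With 1 library left out at a time, the adjusted p of Cat in edgeR ran from 0.0253 to 0.183 in LT-HSCs, with 1 of 6 fits past the threshold (without young replicate 2), and from 0.0355 to 0.135 in ST-HSCs, with 2 of 6 past it (without young replicate 2 or young replicate 3). The log2 change itself stayed between −0.75 and −0.56 in these 12 fits. With detected genes per library as a covariate, an alternative chosen after seeing the data, Cat changed by −0.67 in LT-HSCs, −0.67 in ST-HSCs and −0.59 on average, about as much as without it, at adjusted p of 0.169, 0.0937 and 0.0288 in edgeR. The number of genes with a count was 11548 to 13876 in young and 13526 to 14133 in aged libraries. Averaged over fractions, the fall of Cat passed in each of the 18 fits that left out 1 library, and without both libraries that had the most zeros it was −0.62 (adjusted p = 0.000358). Within fractions the changes without both were −0.70 in LT-HSCs (adjusted p = 0.0668) and −0.72 in ST-HSCs (adjusted p = 0.0401).

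Sums of marker lists moved with age beside Cat. The 12 listed erythroid markers, of which 2 to 7 had no count in any library of a group, summed to 518 to 612 CPM in young and 652 to 690 CPM in aged LT-HSCs, without overlap. In ST-HSCs they summed to 656 to 779 CPM in young and 743 to 796 CPM in aged mice, and in bulk-HSCs to 686 to 944 CPM and 760 to 805 CPM, with overlap in both. Car2 was the largest item in every library, and without Car2 and Tfrc the sum was 0.996 to 154 CPM in young and 12.7 to 57.8 CPM in aged libraries. The 7 listed megakaryocyte markers, Gp6 at 0 throughout, summed to 193 to 203 CPM in young and 414 to 542 CPM in aged ST-HSCs and to 332 to 561 CPM and 801 to 830 CPM in bulk-HSCs, without overlap, and to 652 to 881 CPM and 817 to 1244 CPM in LT-HSCs, with overlap. Vwf was the largest item of this list in every library but young ST-HSC replicate 2, where Itga2b was, and sums without Vwf are not given. In LT-HSCs the HSC markers (3745 to 4119 CPM in young, 3299 to 3723 CPM in aged mice) and the B cell markers (18.8 to 19.8 CPM and 12.9 to 15.4 CPM) did not overlap either. The part of these markers in the changes of Cat and of the other genes was not tested.

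Txnip was expressed at 1730 to 2857 CPM over the libraries. In LT-HSCs it stood at 2454, 2194 and 2283 CPM in young mice and at 2730, 2857 and 2669 CPM in aged mice. The ST-HSC levels of Txnip were 2071, 2094 and 1902 CPM against 2386, 2816 and 2522 CPM. Its bulk-HSC levels were 1871, 2236 and 1916 CPM in young mice and 1730, 2112 and 2831 CPM in aged mice. The aged libraries lay above the young ones in the LT and ST fractions, whereas the aged bulk-HSC libraries spanned the whole young range.

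The average change of Txnip over the 3 fractions was 0.25 on the log2 scale (SE 0.072), a 1.19-fold rise with an adjusted p of 0.0457 in edgeR. No single fraction passed: the change was 0.25 in LT-HSCs (adjusted p = 0.601), 0.35 in ST-HSCs (0.277), and 0.15 for the bulk fraction (0.746). The averaged call was not kept under most other settings. It passed in 2 of the 8 other fits (no filter beyond 1 count and DESeq2) and in 2 of the 18 fits with 1 library left out (without young bulk-HSC replicate 2 or aged bulk-HSC replicate 1), and the adjusted p was 0.103 without both libraries that had the most zeros and 0.703 with detected genes as a covariate, at changes of 0.23 and 0.16. The antisense gene Gm15441 overlaps Txnip, with 723 counts in all against 833609 for Txnip, and whether the counting used strand is not given in the sources used here.

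**Figure D1:**
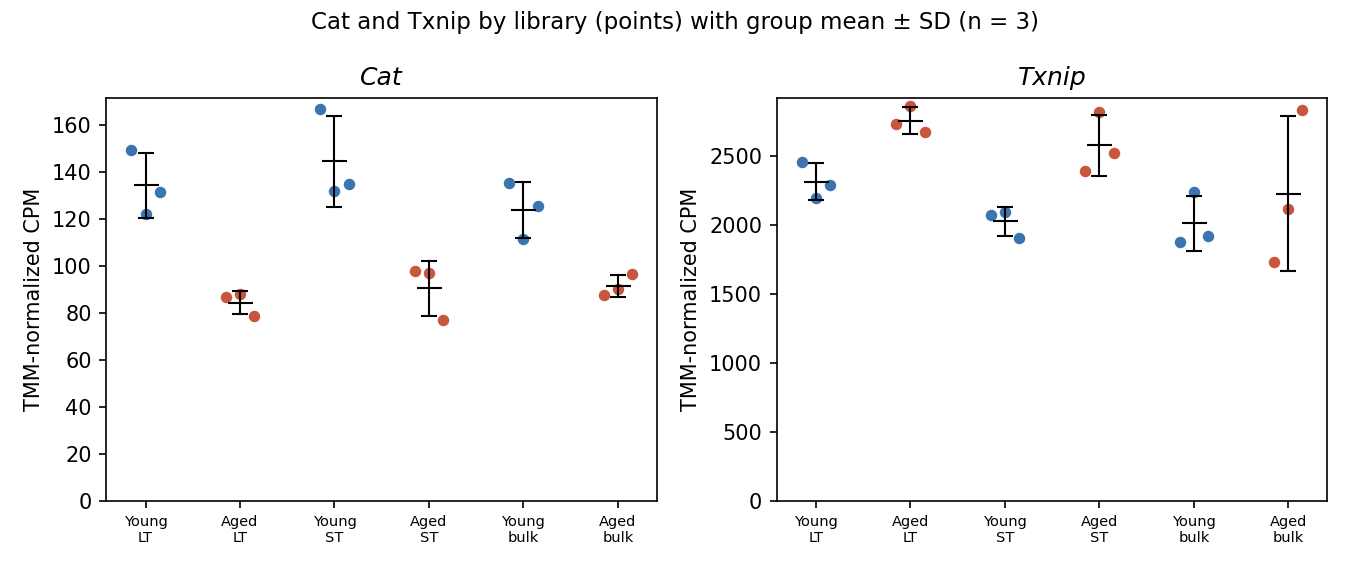
Cat and Txnip in TMM-normalized CPM (y axis, linear, from 0) for the 6 groups (x axis). Points are libraries, black bars the mean ± SD (n = 3). All 9 aged Cat points lie below all 9 young ones, while aged Txnip points lie above the young ones in LT and ST but spread from 1730 to 2831 in bulk.

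Of the 10 genes, edgeR called 1 with age in LT-HSCs (Cat), against 0.445% of all tested genes, 1 in ST-HSCs (Cat), against 0.851%, 0 in bulk-HSCs, against 1.98%, and 2 averaged over the fractions (Cat and Txnip), against 6.75%. At an unadjusted p under 0.05 in edgeR, 1 of the 10 passed in bulk-HSCs, against 13.3% of all tested genes, and DESeq2 called 1 there. The 10 genes had a median log2 change of −0.02 (LT-HSCs), 0.02 (ST-HSCs), −0.01 (bulk-HSCs) and −0.01 (averaged), where the medians over all tested genes were 0.04, 0.02, 0.03 and 0.04. In each of the 4 comparisons 5 of the 10 were higher in aged cells. The ranges of young and aged libraries were separate for 3 of the 10 in LT-HSCs, against 16.1% of all tested genes, for 4 in ST-HSCs, against 17.8%, and for 3 in bulk-HSCs, against 22.7%.

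**Figure D2:**
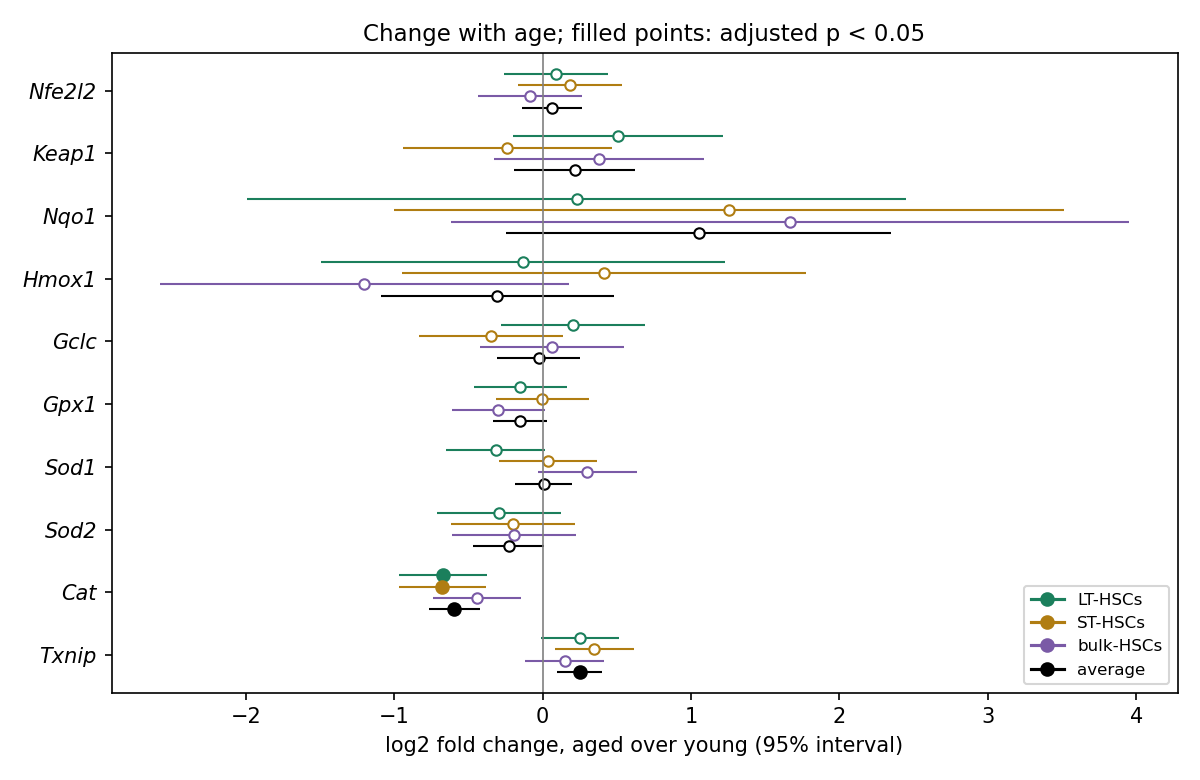
Log2 fold change with age (x axis, aged over young) of the 10 genes (y axis) in LT-HSCs, ST-HSCs, bulk-HSCs and their average, with 95% intervals from edgeR. Filled points have an adjusted p under 0.05: Cat in LT-HSCs, ST-HSCs and the average, and Txnip in the average.

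The regulators of the pathway showed no change past the test. Nfe2l2, the transcription factor, had group means between 108 and 125 CPM, and its average change was 0.06 (95% interval −0.14 to 0.26, adjusted p = 0.822 in edgeR) and 0.08 without both libraries that had the most zeros. Its aged LT-HSC libraries lay within 117 to 120 CPM and its young LT-HSC libraries within 84.8 to 138 CPM, so that the young range enclosed the aged one. Keap1, the adaptor that marks Nrf2 for degradation, was at 102, 84.8 and 24.4 CPM in young LT-HSCs. The lowest of these was replicate 3, one of the libraries with the most zeros, and no other library had Keap1 below 61.1 CPM. The change of Keap1 in LT-HSCs was 0.51 (95% interval −0.20 to 1.22) and 0.10 without that library.

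The Nrf2 target enzymes Nqo1 and Hmox1 were the least expressed and the most variable of the 10. Nqo1, a quinone reductase, was at 3.92, 2.18 and 4.99 CPM in young ST-HSCs and at 10.3, 9.73 and 6.45 CPM in aged ST-HSCs, with no overlap. Young bulk-HSCs held 1.45, 8.71 and 0 CPM of Nqo1 against 9.56, 7.55 and 15.3 CPM in aged bulk-HSCs, where the ranges overlapped. Its LT-HSC levels were 7.84, 10.9 and 7.26 CPM in young and 6.27, 12.6 and 11.6 CPM in aged mice. The average change of Nqo1 was 1.05, with a 95% interval of −0.25 to 2.35 and an adjusted p of 0.387 in edgeR, so that a change of either direction was within the error. It was 1.10 without both libraries that had the most zeros, and 1.79 (adjusted p = 0.074) without young bulk-HSC replicate 2, the highest of its group.

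Hmox1, heme oxygenase 1, which degrades heme and is abundant in macrophages, was at 29.3, 14.5 and 14.1 CPM in young bulk-HSCs and at 5.68, 11 and 8.45 CPM in aged bulk-HSCs, with no overlap. The change was −1.20 on the log2 scale (95% interval −2.58 to 0.17, adjusted p = 0.477 in edgeR). The summed level of the 11 listed macrophage markers was 48.9 to 79.9 CPM in young bulk-HSCs and 11.2 to 19.5 CPM in aged bulk-HSCs. Marco was at 0 in both groups, and Adgre1, C1qb and C1qc were at 0 in all aged bulk-HSC libraries. The part of these markers in the difference of Hmox1 was not tested. In LT-HSCs the Hmox1 ranges of both ages were nearly the same, 2.99 to 14 CPM in young and 3.09 to 12.3 CPM in aged mice, and ST-HSCs ranged from 6.53 to 16.1 CPM and from 7.51 to 22.5 CPM. The macrophage markers summed to 0 to 24.5 CPM in young and 23.3 to 75.9 CPM in aged LT-HSCs. Their ST-HSC sums were 15.8 to 33.1 CPM and 15.6 to 73.8 CPM. Without both libraries that had the most zeros, the change of Hmox1 was −0.55 in LT-HSCs and 0.17 in ST-HSCs.

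Gclc, the catalytic subunit of the enzyme that starts glutathione synthesis, was at 51.4, 43.6 and 55.6 CPM in young LT-HSCs and at 58.7, 59.2 and 55.7 CPM in aged LT-HSCs. In ST-HSCs the order was the other way, with 54.8, 58.5 and 69.7 CPM in young mice and 53.5, 43.0 and 47.3 CPM in aged mice. Neither pair of ranges overlapped, although the nearest values differed by little in both. Gclc changed by 0.20 in LT-HSCs (adjusted p = 0.935) and −0.35 in ST-HSCs (adjusted p = 0.759), and the difference between these effects was 0.55 (95% interval −0.14 to 1.24, unadjusted p = 0.109, adjusted p = 1 in edgeR), which did not pass. Without both libraries that had the most zeros these were 0.27, −0.23 and 0.50. Bulk-HSC levels of Gclc were spread from 28.8 to 66.0 CPM in young and from 45.2 to 53.6 CPM in aged mice.

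Gpx1, the main cytosolic glutathione peroxidase, was lower in LT-HSC than in ST-HSC libraries at both ages, without passing the test. Young LT-HSCs held 215, 168 and 243 CPM and young ST-HSCs 298, 245 and 247 CPM. The aged values were 210, 179 and 174 CPM in LT-HSCs and 288, 230 and 270 CPM in ST-HSCs. The LT-HSC and ST-HSC ranges were thus separate at either age, with LT-HSCs lower, although the nearest young values, 243 and 245 CPM, lay close together. The difference was −0.33 in young mice (SE 0.15, unadjusted p = 0.0378, adjusted p = 0.439 in edgeR) and −0.48 in aged mice (SE 0.15, unadjusted p = 0.00455, adjusted p = 0.781), and neither passed over all tested genes. The young difference was −0.50 (adjusted p = 0.359) without both libraries that had the most zeros. With 1 library left out at a time it ran from −0.46 to −0.19, and 0 of 6 fits passed.

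Sod1 and Sod2, the superoxide dismutases of the cytosol and of mitochondria, did not pass in any comparison. Sod1 was at 88.1, 144 and 130 CPM in young bulk-HSCs and at 149, 149 and 148 CPM in aged bulk-HSCs, which did not overlap, for a change of 0.30 (95% interval −0.03 to 0.63). In LT-HSCs it was at 166, 140 and 188 CPM in young and 120, 141 and 136 CPM in aged mice, a change of −0.32 (95% interval −0.65 to 0.02). The difference between these age effects of Sod1 was −0.62 (SE 0.22, unadjusted p = 0.0133, adjusted p = 0.73 in edgeR). Without both libraries that had the most zeros, the LT-HSC change of Sod1 was −0.22 and this difference −0.52. Sod1 overlaps the gene Scaf4 on the opposite strand, which had 30699 counts in all against 52935 for Sod1, so that some reads of one could be counted for the other. Sod2 had changes of −0.29, −0.20 and −0.20 in LT-HSCs, ST-HSCs and bulk-HSCs and an average of −0.23 (95% interval −0.47 to 0.01, adjusted p = 0.282 in edgeR), which was −0.13 without both of those libraries.

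**Figure D3:**
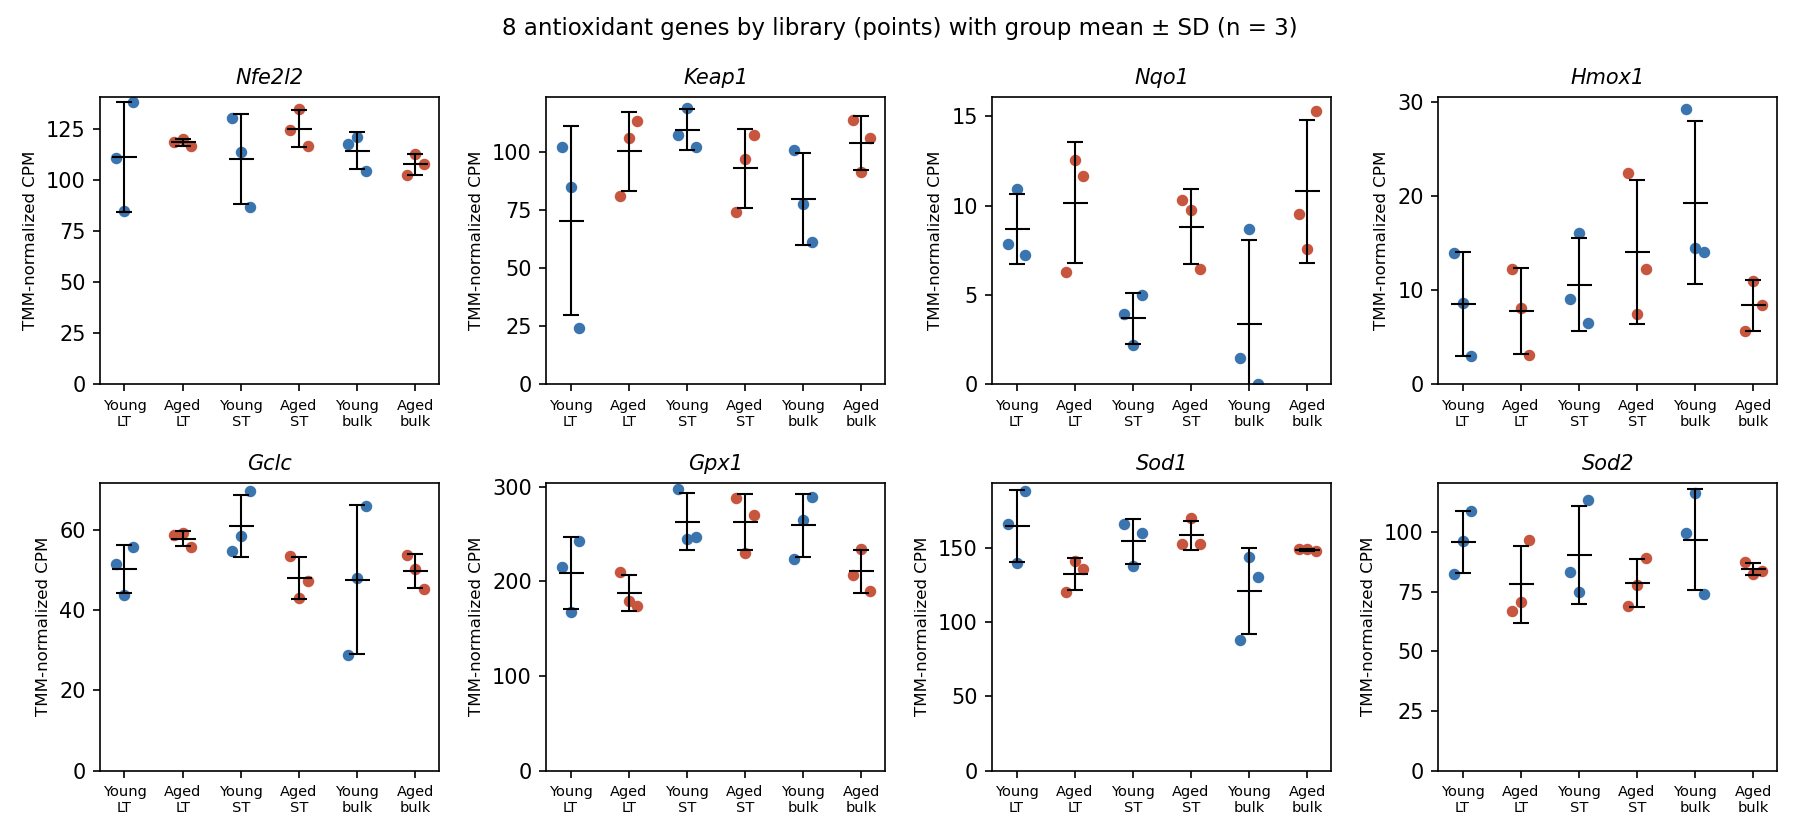
TMM-normalized CPM (y axes, linear, from 0, scaled per gene) of the other 8 genes in the 6 groups (x axes). Points are libraries and black bars the mean ± SD (n = 3). Keap1 has 1 young LT-HSC library at 24.4, Hmox1 is lower in aged than in young bulk-HSCs, and Gpx1 is lower in LT-HSCs than in ST-HSCs at both ages.

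Between fractions of the same age, edgeR called 0 of the 10 genes, and DESeq2 called 0 as well. In young mice 0.429% of all tested genes were called between LT-HSCs and ST-HSCs, 0.273% between LT-HSCs and bulk-HSCs and 0.164% between ST-HSCs and bulk-HSCs. In aged mice the shares were 0.00781%, 0% and 0%. At an unadjusted p under 0.05 in edgeR, 1 of the 10 passed in each of these 6 comparisons, against 10.4%, 11.5% and 9.63% of all tested genes in young mice and 3.41%, 3.29% and 2.7% in aged mice, in the same order. All of these tests came from 1 fit over the 18 libraries, with a spread shared by both ages. Replicates differed more in young than in aged groups, with a chi-square per degree of freedom of 57.3 to 200 against 32.5 to 50.9. The shares therefore cannot show whether fractions differ less in aged mice. Between LT-HSCs and ST-HSCs, the libraries did not overlap for 3 of the 10 in young mice, Gpx1 (lower in LT-HSCs), Nqo1 and Txnip (higher), against 12.1% of all tested genes. In aged mice they did not overlap for 3, Gpx1 and Sod1 (lower) and Gclc (higher), against 15%. The age effects of the fractions were compared with each other as well: 0 of the 10 passed in edgeR or DESeq2, with 0% of all tested genes called for LT-HSCs against ST-HSCs, 0.00781% for LT-HSCs against bulk-HSCs and 0.0625% for ST-HSCs against bulk-HSCs, and 0, 1 and 0 of the 10 had an unadjusted p under 0.05, against 3.92%, 5.82% and 5.78%.

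The wider pathway was read from 7 lists of 105 genes in all, the 10 included, of which 99 were tested. Of the 99, 0 rose and 1 fell in LT-HSCs, 1 rose and 2 fell in ST-HSCs, 2 rose and 1 fell in bulk-HSCs, and 3 rose and 5 fell averaged over the fractions. Of all tested genes 0.445%, 0.851%, 1.98% and 6.75% were called in these 4 comparisons, so that the averaged count lay near the background. Averaged, the list of Nrf2 and its partners had 0 of 12 called, with a median change of 0.09, and the Nrf2 target enzymes 2 of 24, with a median of 0.17. The glutathione list had 2 of 26 (median 0.14), superoxide and peroxide removal 1 of 12 (−0.12), thioredoxin 1 of 14 (0.11), FoxO and other redox regulators of HSCs 1 of 14 (0.01) and the NADPH oxidase 2 of 6 (−0.40). The median over all tested genes was 0.04.

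Gstm1, a glutathione S-transferase and Nrf2 target, was at 107, 101 and 79.1 CPM in young ST-HSCs and at 142, 165 and 156 CPM in aged ST-HSCs. In bulk-HSCs it was at 119, 98.7 and 87.7 CPM in young and 145, 155 and 167 CPM in aged mice. Young LT-HSCs already held 166, 132 and 146 CPM of Gstm1, and aged LT-HSCs 169, 184 and 156 CPM. Gstm1 rose by 0.69 in ST-HSCs (SE 0.15, adjusted p = 0.0343) and by 0.61 in bulk cells (SE 0.15, adjusted p = 0.037), while the LT-HSC change was 0.20 (adjusted p = 0.835 in edgeR). With 1 library left out, 1 of 6 fits passed in ST-HSCs (without young replicate 1, adjusted p up to 0.143 in the others) and 1 of 6 in bulk-HSCs (without young replicate 1, up to 0.154). The ST-HSC change of Gstm1 was 0.57 (adjusted p = 0.114) without both libraries that had the most zeros. The change averaged over the fractions was 0.50 (SE 0.085, adjusted p = 0.00128 in edgeR), and it passed in all 18 fits with 1 library left out. The difference of age effects between LT-HSCs and ST-HSCs was −0.49 (unadjusted p = 0.0293, adjusted p = 1) and did not pass (−0.40 without both libraries). In young mice Gstm1 was higher in every LT-HSC than in every ST-HSC library, by 0.63 on the log2 scale with an adjusted p of 0.0724. Foxo1 (0.72, adjusted p = 0.114 in edgeR) and Osgin1 (1.23, adjusted p = 0.165) came next in that comparison, in which 0 of the 99 genes passed, 13 had an unadjusted p under 0.05, against 10.4% of all tested genes, and DESeq2 called 5. The differences of the 3 genes were 0.52, 0.88 and 1.08 without both libraries that had the most zeros, and none was called. Gstm1 has close relatives in the genome, and reads shared with them could be split by the counting.

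Rac2, a subunit of the NADPH oxidase, which makes superoxide rather than removing it, was lower in aged HSCs. Averaged over fractions, Rac2 fell by 0.44 (SE 0.064, adjusted p = 0.000255 in edgeR), and the 9 aged libraries lay below the 9 young ones, at 164 to 208 CPM against 231 to 277 CPM. Foxo3, a transcription factor that protects HSCs from oxidative stress, fell by 0.29 (SE 0.077, adjusted p = 0.0304), and Tkt, transketolase of the pentose phosphate pathway, fell by 0.24 (SE 0.067, adjusted p = 0.0361). Leaving out 1 library kept the call of Rac2 in all 18 fits, that of Foxo3 in 10 and that of Tkt in 8. Without both libraries that had the most zeros, Rac2 had −0.45 (adjusted p = 0.000454 in edgeR), Foxo3 −0.32 (0.0143) and Tkt −0.18 (0.0822). With detected genes as a covariate, the averaged call of Rac2 was kept, at a change of −0.43 (adjusted p = 0.0451 in edgeR). The calls of Gstm1 (adjusted p = 0.209) and Foxo3 (0.246) were not kept, although the changes, 0.42 and −0.35, were about as large, and Tkt was at −0.077 (0.862).

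Gpx7, a glutathione peroxidase of the endoplasmic reticulum, had 0 counts in the 3 young bulk-HSC libraries and 132, 144 and 49 counts in the aged ones. With 3 counts per library set in place of 0, the mean of aged bulk-HSCs was 34.9-fold higher (adjusted p = 0.00336 in edgeR on the counts themselves). That fold covers counting error only and is no lower bound where zeros arose otherwise. The call passed in 7 of 8 other fits and in 6 of 6 with 1 library left out. Young LT-HSCs held 38, 90 and 241 counts and young ST-HSCs 105, 99 and 197. Their means were each 46.4-fold above young bulk-HSCs with 0 replaced in the same way, although bulk-HSCs hold cells of both kinds. Aged LT-HSCs held 82, 99 and 58 counts and aged ST-HSCs 77, 58 and 81. The change with age was thus −0.67 in LT-HSCs (95% interval −2.75 to 1.41), where the ranges overlapped, and −1.02 in ST-HSCs (95% interval −3.11 to 1.07), where the aged libraries lay below the young ones, and neither passed. Gpx7 passed as higher with age averaged over the fractions (adjusted p = 0.018 in edgeR), with a fitted rise in bulk-HSCs alone. The young bulk-HSC libraries had 29 to 67 of the 9653 well-expressed genes at 0. The part of such zeros in the Gpx7 values was not tested.

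**Figure D4:**
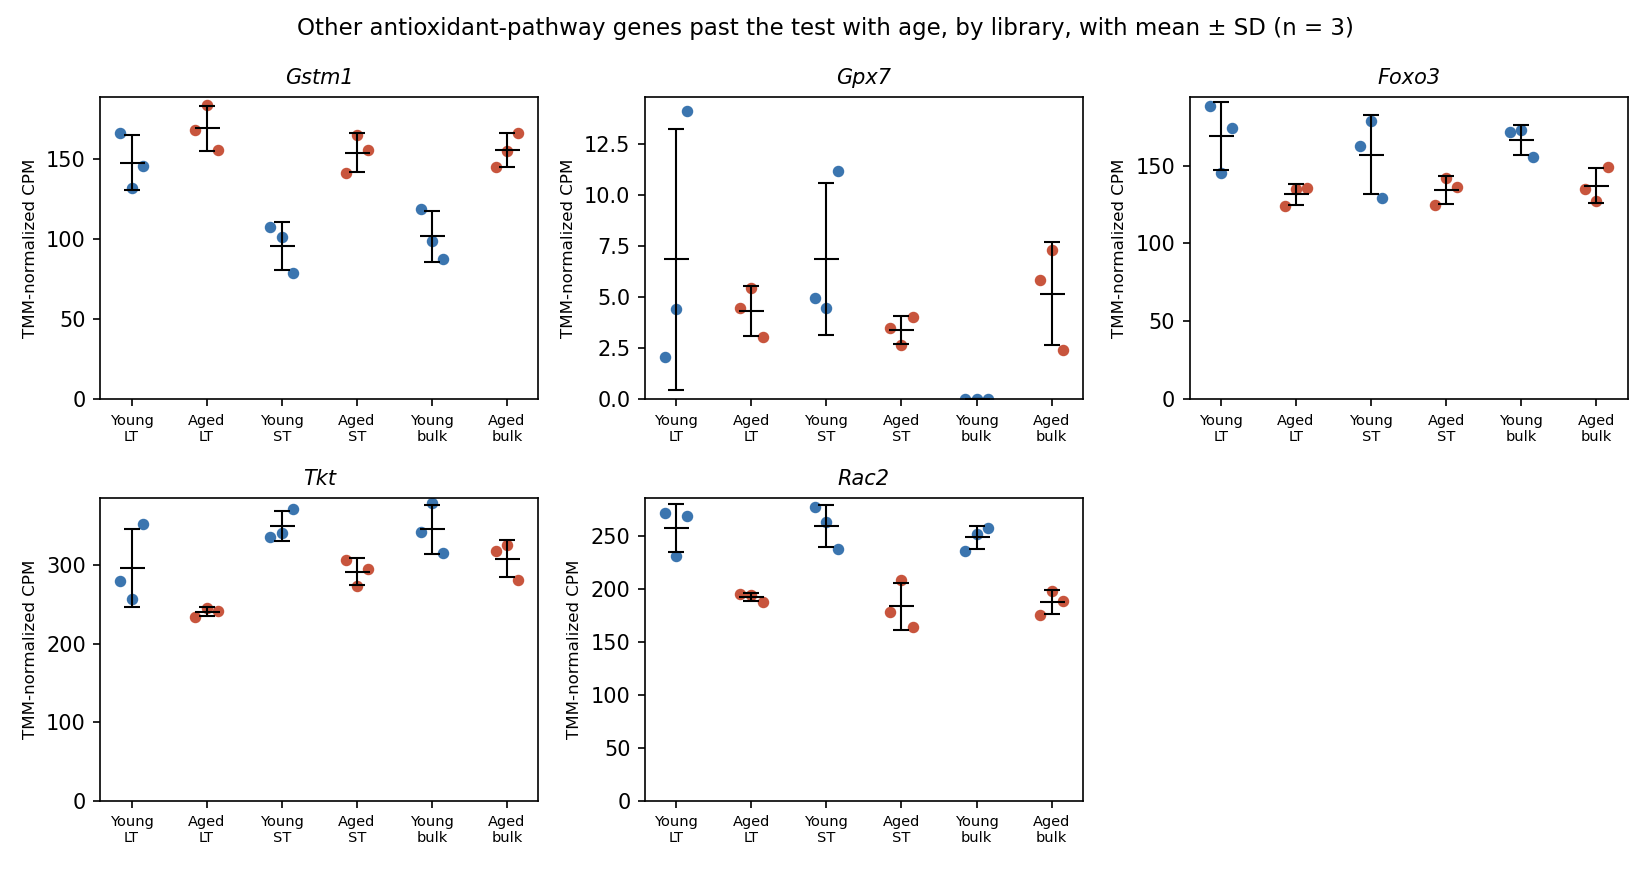
TMM-normalized CPM (y axes, linear, from 0, scaled per gene) of 5 other pathway genes that passed an age comparison, in the 6 groups (x axes), with libraries as points and black bars for the mean ± SD (n = 3). Rac2 is lower in all aged libraries, Gstm1 is higher in aged ST-HSCs and bulk-HSCs, and Gpx7 is at 0 in the 3 young bulk-HSC libraries.

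Over the 18 libraries, the genes whose log2 CPM was most like that of Cat were Pan3 (Pearson r = 0.92), Arhgap15 (0.92) and Rere (0.92). Those most like Txnip were Gm7609 (0.84), Prnp (0.83) and Ccdc157 (0.80). For the other 8 the most alike genes were Ppme1 for Nfe2l2 (0.79), Slc2a8 for Keap1 (0.96), Rabl2 for Nqo1 (0.93), Smug1 for Hmox1 (0.87), Letm1 for Gclc (0.86), Arhgdib for Gpx1 (0.89), Zfp280c for Sod1 (0.86) and Hdgf for Sod2 (0.85). These values describe 18 libraries that share depth and age differences, and each gene was picked for its r among all tested genes. Gm7609 was at 0 CPM in all young libraries and at 0 to 5.77 CPM in the aged ones. In young libraries Slc2a8 (0 to 12.6 CPM) and Rabl2 (0 to 20.6 CPM) reached 0 as well. The part of such low values and of single libraries in r was not tested. Among the 10 genes themselves r ran from −0.54 (Hmox1 and Sod1) to 0.52 (Nqo1 and Txnip), and Cat and Txnip had −0.48.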

How the data were processed

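RNA of sorted HSC fractions was sequenced after depletion of ribosomal RNA. Reads were mapped by the authors with HISAT2 (build mm10), who used SAMtools 1.7 and quantified with StringTie 1.3.4d, per the labels and methods; the annotation and the use of strand are not given in the sources used here. The deposited values are raw counts per gene, without normalization. Libraries were grouped by the fraction and age in their titles, and all 18 were used.

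The counts were normalized with TMM factors and tested with edgeR 4.0.16 in R 4.3.3. Genes averaging 1 CPM or more (12808) entered 1 quasi-likelihood fit of the 6 group means, with 13 contrasts and Benjamini-Hochberg adjustment over all tested genes at 0.05. Standard errors were derived from the fold change and the F statistic. DESeq2 1.42.0, other scalings, filters, a replicate block and each library left out in turn were alternatives, and 2 more, detected genes per library as a covariate and leaving out 2 doubted libraries together, were chosen after seeing the data. Figures used Python 3.11.15 and matplotlib 3.10.9. The tests were also run on simulated data, with changes larger than most of those given here and libraries drawn independently. That run does not bear on smaller changes or on shared animals.

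The 10 genes and the 7 pathway lists were chosen with earlier results of these data known. All 10 are named, as is each listed gene, apart from those not reported here, with an adjusted p under 0.05 in an age comparison, the 3 smallest p in young LT-HSCs against ST-HSCs, and the most alike genes by correlation of log2 CPM (prior count 2). A fold against a group at 0 sets the mean of the other group against 3 counts per library, which covers counting error only. Of the 7 marker lists, the neutrophil sums were 0 to 18.2 CPM and the T cell sums 0 to 8.78. Coordinates and exon lengths came from GENCODE M21 and promoters from RefSeq.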

Additional observations from a re-analysis of the deposited data

Results flagged for a closer look

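The age effects of Gpx7 in ST-HSCs and bulk-HSCs differed by the test of their difference (adjusted p = 0.0423 in edgeR). Gpx7 had 0 counts in all 3 young bulk-HSC libraries, so that the fitted difference has no fixed size. Under library-size scaling, no filter, a fit of only these groups, the replicate block or both libraries with the most zeros left out, and when any of 10 of the 12 libraries compared was left out, the call was not kept.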

How the results depend on the processing

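Counts give the genes called of the 10, then of the 99 pathway genes (the 10 included), where a setting moved them. With only the compared groups fitted, the counts were 0 and 0 in LT-HSCs, 0 and 0 in ST-HSCs, 0 pathway genes in bulk-HSCs, and 0 in young LT-HSCs and in young ST-HSCs against bulk-HSCs. DESeq2 called 3 pathway genes in LT-HSCs, 1 of the 10 and 5 pathway genes in bulk-HSCs, 5, 5 and 2 pathway genes between the young fractions (LT-ST, LT-bulk, ST-bulk), and 1 and 2 for the age effect of LT-HSCs minus that of ST-HSCs and of bulk-HSCs. With detected genes as a covariate, the counts were 0 and 0 in LT-HSCs, 0 and 0 in ST-HSCs, 1 pathway gene in bulk-HSCs, 1 and 2 averaged, and 2 in young LT-HSCs against bulk-HSCs. Without young LT-HSC and ST-HSC replicate 3 they were 0 and 0 in LT-HSCs, and 1 of the 10 averaged. The average also held 1 of the 10 with library size alone, RLE factors, filterByExpr or the replicate block. The replicate block gave 0 pathway genes for young LT-HSCs and for young ST-HSCs against bulk-HSCs. For the age effect in ST-HSCs minus that in bulk-HSCs the count was 0 with library size alone, no filter, only the compared groups, the replicate block or both doubted libraries left out. The cause of these moves was not tested.

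Leaving out 1 library at a time gave 0 to 1 of the 10 (LT-HSCs), 0 to 1 (ST-HSCs) and 1 to 2 for the average. For pathway genes it gave 0 to 2 (LT-HSCs), 0 to 2 (ST-HSCs), 1 to 3 in bulk-HSCs, 5 to 11 averaged, 0 to 2, 1 to 2 and 1 to 2 between the young fractions, 0 to 1 for LT-HSCs minus bulk-HSCs and 0 to 1 for ST-HSCs minus bulk-HSCs.

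No called gene changed direction. Changes that were not called and turned sign were, with detected genes as a covariate, Nqo1 (−0.058) and Gpx1 (0.014) in LT-HSCs, Hmox1 (−0.0064) and Gpx1 (0.13) in ST-HSCs, Keap1 (−0.15) and Sod2 (0.0088) in bulk-HSCs, and Keap1 (−0.19), Gclc (0.20) and Gpx1 (0.015) averaged. Gpx1 in ST-HSCs was 0.0058 with library size alone and 0.0046 with only the compared groups. Averaged, Sod1 was −0.023 with library size alone, −0.0079 with RLE factors and −0.0078 with DESeq2. Without both doubted libraries Sod2 in ST-HSCs was 0.0030 and Gclc averaged 0.035. With 1 library left out, the signs turned within −0.089 to 0.28 for Nfe2l2 and −0.61 to 0.42 for Hmox1 in LT-HSCs, −0.10 to 0.85 for Hmox1, −0.074 to 0.096 for Gpx1, −0.042 to 0.092 for Sod1 and −0.32 to 5.5e-05 for Sod2 in ST-HSCs, −0.19 to 0.37 for Gclc and −0.064 to 0.30 for Txnip in bulk-HSCs, and −0.11 to 0.077 for Gclc and −0.056 to 0.055 for Sod1 averaged.

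Whether equal replicate numbers mark shared animals is not given in the sources used here. Deviations of same-numbered LT-HSC and ST-HSC libraries of 1 age correlated at 0.011 to 0.16 (6 of 6 pairs positive, 2 over 0.1), and 11 of these 12 libraries correlated best with their own number. The 12 pairs with bulk-HSCs ran from −0.032 to 0.059. These correlations do not settle whether animals were shared, and the main tests treated the libraries as unpaired. Between LT-HSCs and ST-HSCs, Gpx1 passed in 0 of 9 other fits in young and 0 of 8 in aged mice, a replicate block among them. With the replicate block, Cat had adjusted p = 0.0338 in LT-HSCs, 0.0269 in ST-HSCs and 0.000209 averaged, and Txnip 0.054 averaged in edgeR.

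Nqo1 and Hmox1 varied most over the libraries, with coefficients of variation of 53.1% and 57.4%, where counting error at their median counts (146.5 and 205.5) alone gives 8.26% and 6.98%.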
